A study of Rattus norvegicus with 8 samples.

Results

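The microRNAs (miRNAs) miR-221 and miR-222 were followed in rat renal cortex on 8 one-colour Agilent miRNA arrays. Their members were every rat probe set on the array named for miR-221 or miR-222, whatever the arm, which gave 4 mature miRNAs of the 758 rat miRNAs measured: rno-miR-221-3p, rno-miR-222-3p and their 5p arms, written below without the species prefix. The pair of 3p arms had been selected on these same signals, because both were higher in the DOCA-salt groups, so for the members every contrast of a DOCA-salt group with a standard-diet group is given here as a description, with no test. Their tested contrasts were the ones that the choice did not use, DOCA-EVs against DOCA and UNX against SHAM.

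The arrays covered 4 groups of male rats with 2 arrays each, all of renal cortex taken 9 weeks after surgery. DOCA-EVs rats lost a kidney, ate a diet with 1.5% sodium, received deoxycorticosterone acetate (DOCA, a mineralocorticoid) under the skin at 8 mg/kg, 2 times a week in soybean oil, and from week 2 had weekly intravenous injections of extracellular vesicles (EVs) shed by adipose mesenchymal cells. DOCA rats had the same surgery, diet and hormone, with intravenous vehicle in place of the vesicles. UNX rats were nephrectomized, ate 0.5% sodium and received 0.1 ml soybean oil under the skin, and SHAM rats had a sham operation and the same 0.5% sodium diet. The labels give no strain, age, or species of the vesicle donors, and they do not say whether the arrays of a group came from separate rats, so p-values measure the spread between these arrays, which may be technical. Hormone, salt and intravenous injection came together in both DOCA-salt groups and cannot be told apart against UNX or SHAM.

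A mature miRNA guides an Argonaute protein to messenger RNAs that pair with its seed, the bases 2 to 8 at its 5′ end, and lowers the output of those messengers. miR-221 and miR-222 come from neighbouring hairpins on the X chromosome. In vascular smooth muscle, work in rat arteries tied them to proliferation through the cell cycle inhibitors p27Kip1 and p57Kip2, and in human endothelial cells they were described as repressors of the stem cell factor receptor Kit.

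The mature sequences show why both 3p arms are treated as one family. They come from RefSeq (GRCr8 assembly), are printed 5′ to 3′ and carry the seed in capitals. The 5p arms, cut from the other side of each hairpin, are shown because the array measured them as well.
miR-221-3p: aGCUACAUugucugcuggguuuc
miR-222-3p: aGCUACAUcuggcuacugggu
miR-221-5p: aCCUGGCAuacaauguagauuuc
miR-222-5p: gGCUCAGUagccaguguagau

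Both 3p arms shared their first 8 bases and therefore the whole seed GCUACAU. Aligned from base 1, 11 of 21 positions were identical, and after the shared start the longest run in common between them was 6 bases. No other miRNA among the 724 mature rat miRNAs of the RefSeq table had this seed, so the 2 members were the whole seed family there. The 5p arms shared their seeds with no other miRNA of the table and not with each other.

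The hairpins are shown with the 3p arm in capitals, because their order and spacing are what makes the pair a cluster. Mir222 lay at chrX:6022621-6022723 and Mir221 at chrX:6023182-6023290, both on the plus strand of GRCr8, with 458 bases between them. Both lay within the spans of 2 annotated long noncoding RNA genes, LOC120099382 on the same strand and LOC120099384 on the opposite one.
Mir222: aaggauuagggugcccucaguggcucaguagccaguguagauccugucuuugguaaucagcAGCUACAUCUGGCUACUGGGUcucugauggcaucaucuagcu
Mir221: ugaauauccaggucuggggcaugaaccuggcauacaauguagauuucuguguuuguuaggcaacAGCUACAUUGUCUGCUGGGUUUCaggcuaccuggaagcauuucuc

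Each mature miRNA was read by 2 probes with 8 spots each, or 16 spots per array and 128 over the 8 arrays. A spot was well above background where the scanner software set that flag, and a miRNA was above background on an array where at least 1 of its probes had the flag on a share of 0.5 or more of its spots. miR-221-3p was well above background on 128 of 128 spots, and so on 8 of 8 arrays. miR-222-3p was well above background on 20 of 128 spots, although 113 of the 128 were positive and significant against the local background in the software's own test. That looser flag was also set on 23.5% to 49.9% of the negative control spots of an array. By array, the spots well above background were 8 and 7 of 16 in DOCA-EVs, 3 and 2 in DOCA, and 0 on each UNX and SHAM array. miR-222-3p was therefore above background on both DOCA-EVs arrays and on none of the other 6 arrays. The software's own detection call counted it as detected on 2 DOCA-EVs, 2 DOCA, 1 UNX and 0 SHAM arrays.

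The 5p arms gave no measurable signal. miR-221-5p had 0 of 128 spots well above background, and 4 were positive and significant. miR-222-5p had 0 of 128 well above background and 7 positive and significant. Their probe means ran between -3.87 and -0.14 intensity units for miR-221-5p and between -3.49 and 2.76 for miR-222-5p, against means of 2.00 to 3.31 for the negative control spots of the arrays. The software counted neither 5p arm as detected on any array. No spot of any member was saturated.

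**Figure D1:**
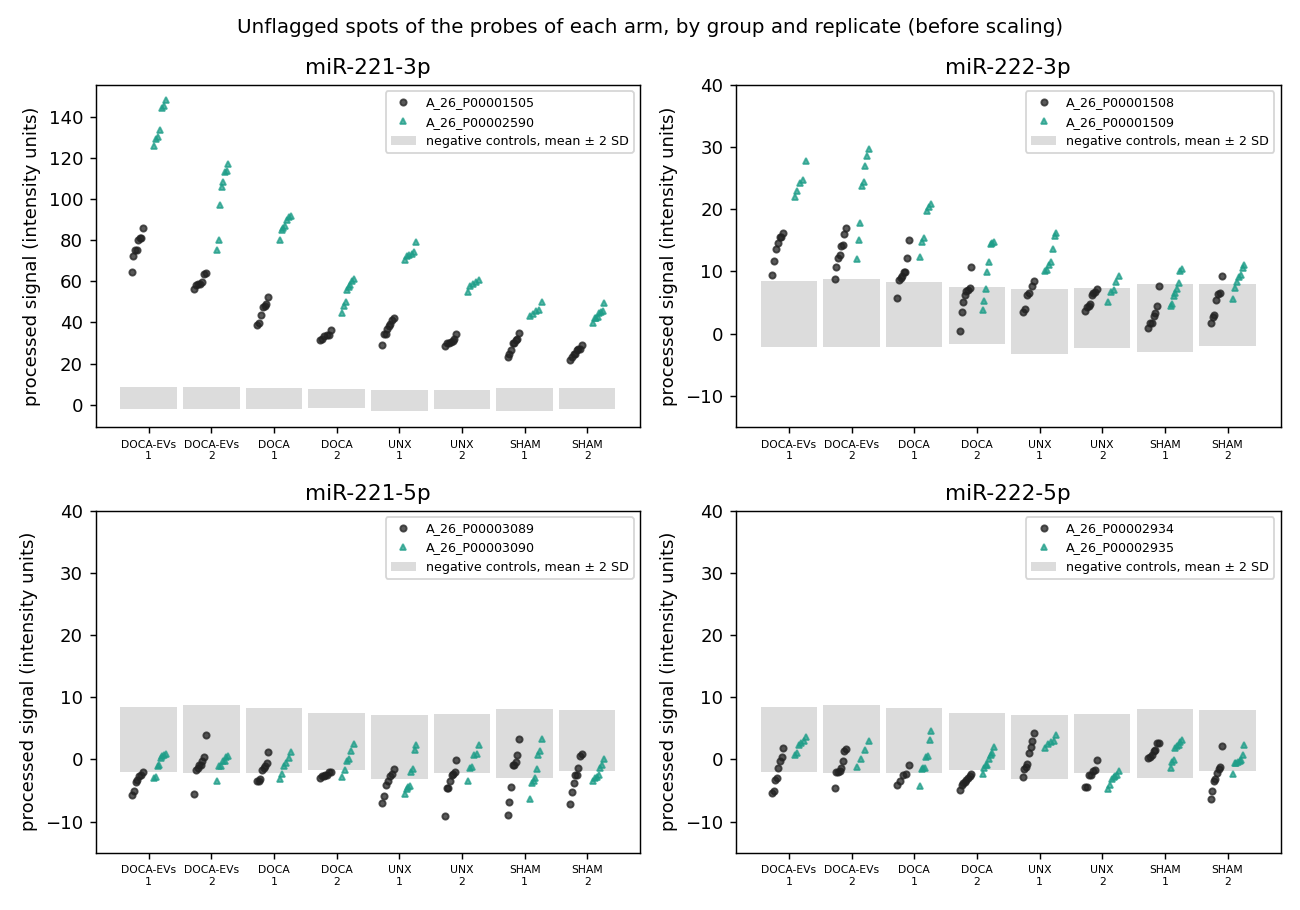
Processed signal in intensity units (vertical axis, before scaling between arrays) of every unflagged spot of the probes for each arm, by group and replicate (horizontal axis). Symbols separate the 2 probes of an arm, and the grey band is the mean ± 2 SD of that array's negative control spots; the vertical scale of the miR-221-3p panel differs from the others. Every miR-221-3p spot sits above the band, miR-222-3p spots lie much closer to it and are brightest on the DOCA-EVs arrays, and both 5p arms stay within or below it.

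Before any scaling, the probe means of miR-221-3p summed to 213 and 161 intensity units on the DOCA-EVs arrays, 133 and 87.9 on the DOCA arrays, 111 and 89.2 on the UNX arrays, and 74.9 and 69.4 on the SHAM arrays. The second DOCA array was thus no brighter than the UNX arrays as scanned. On that array the whole set of miRNAs was dim: the 75th percentile over the 271 probes above background on all arrays was 282 intensity units there, against 395 to 519 on the 7 others. The summed probe means of miR-222-3p were 38.1 and 35.5 in DOCA-EVs, 27.1 and 16.1 in DOCA, 18.7 and 12.7 in UNX, and 10.4 and 13.8 in SHAM.

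Levels between arrays were compared after division by that percentile and are given as log2 of the summed scaled signal of both probes, called the normalized level. miR-221-3p had normalized levels of 7.57 and 7.25 in DOCA-EVs (7.41 ± 0.22, SD, n = 2), 7.10 and 7.05 in DOCA (7.08 ± 0.03), 6.51 and 6.24 in UNX (6.37 ± 0.19), and 6.25 and 6.23 in SHAM (6.24 ± 0.01). All 4 DOCA-salt arrays lay above all 4 standard-diet arrays, and both DOCA-EVs arrays lay above both DOCA arrays. UNX and SHAM overlapped, with the second UNX array between the SHAM values.

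miR-222-3p had normalized levels of 5.09 and 5.07 in DOCA-EVs (5.08 ± 0.01, SD, n = 2), 4.81 and 4.60 in DOCA (4.70 ± 0.14), 3.94 and 3.43 in UNX (3.69 ± 0.36), and 3.40 and 3.90 in SHAM (3.65 ± 0.35). The groups stood in the same order as for miR-221-3p, again with UNX and SHAM overlapping. The dimmest miRNA that counted as above background stood at 4.09 and 4.10 on the DOCA-EVs arrays, 4.08 and 4.74 in DOCA, 4.38 and 3.96 in UNX, and 4.14 and 4.46 in SHAM. Every UNX and SHAM value of miR-222-3p lay under that level on its own array. Those groups therefore have no measured level, and the dimmest level is only an approximate ceiling for them. In whole cortex, more cells that carry a miRNA and more of it per cell cannot be told apart.

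**Figure D2:**
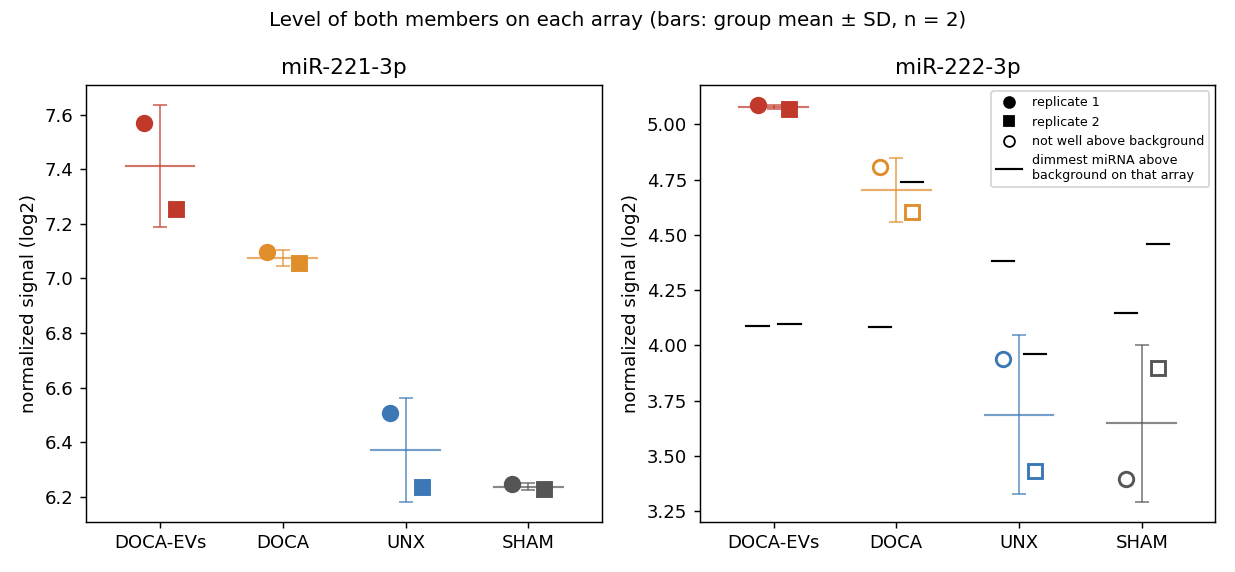
Normalized level (log2, vertical axis) of miR-221-3p and miR-222-3p on each array, by group (horizontal axis); coloured bars are group means ± SD, n = 2, and open symbols mark arrays where the miRNA was not well above background. Black dashes in the right panel give the dimmest miRNA above background on that array: DOCA-EVs stands highest for both members (7.41 and 5.08), and all UNX and SHAM values of miR-222-3p lie under the dash.

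Between the vesicle-treated and the untreated DOCA-salt rats, neither member passed the test. miR-221-3p averaged 7.41 in DOCA-EVs and 7.08 in DOCA, a difference of 0.34 ± 0.16 (log2, SE, limma) or 1.26-fold, with a 95% interval from -0.06 to 0.73 and an adjusted p of 0.60. That interval holds no change as well as a rise of over 1.26-fold. It rests on 1 spread estimate shared by the 4 groups. The median difference between replicate arrays was 0.37 in DOCA-EVs, 0.25 in DOCA, 0.18 in UNX and 0.06 in SHAM (log2), so it may be too narrow here. Within the rows of the slide, which also number the replicates, DOCA-EVs minus DOCA was 0.47 in row 1 and 0.20 in row 2. Without the first DOCA-EVs array it was 0.18, and without the second it was 0.50.

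miR-222-3p stood 1.24-fold higher in DOCA-EVs than in DOCA, with each DOCA value under the dimmest measurable level of its array raised to it. Means were taken on the log2 scale. This is no strict lower bound, because the first DOCA array was not above background at 4.81, over its dimmest level of 4.08. The fitted means were 5.08 and 4.70, a fitted difference of 0.37 ± 0.24 (log2, SE, 95% interval -0.21 to 0.95) with an adjusted p of 0.79 by limma. That interval also holds no change. The row differences were 0.28 and 0.47. Both probes of each member ran the same way, by 0.35 and 0.33 for miR-221-3p and by 0.38 and 0.37 for miR-222-3p (log2).

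For both members the DOCA-EVs arrays did not overlap the DOCA arrays, as was so, in the higher direction, for 12.8% of the 242 miRNAs in the fit. The share of miRNAs past an adjusted p of 0.05 (limma) in this contrast was 0%, or 0 of 242, and 25 had a p under that value before adjustment, 10 of them higher in DOCA-EVs and 15 lower. The median difference over all 242 was 0.00. In that distribution 9.09% of miRNAs had a larger difference than miR-221-3p. In simulated data of this size, 70.0% of miRNAs given a log2 difference of 1 in this contrast were recovered and 95.8% of those given 2, both larger than the differences of either member. The simulated arrays varied independently and equally in all groups, and several miRNAs were changed at once. The real arrays were paired by row and varied unequally, so these rates need not hold for them.

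**Figure D3:**
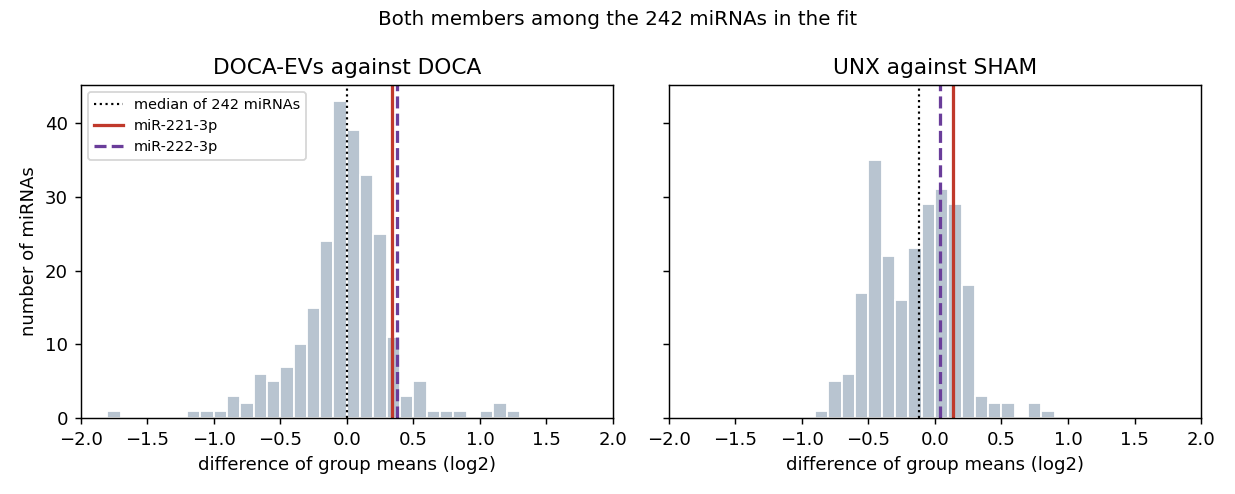
Number of miRNAs (vertical axis) by the difference of group means (log2, horizontal axis) over the 242 miRNAs in the fit, for DOCA-EVs against DOCA (left) and UNX against SHAM (right). The dotted line is the median, 0.00 on the left and -0.12 on the right; the lines for miR-221-3p (0.34 and 0.14) and for the fitted miR-222-3p value lie to its right but inside the range of the other miRNAs.

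UNX against SHAM set nephrectomy with the oil injection against the sham operation, for which the labels name no injection; no difference of miR-221-3p was detectable, and miR-222-3p could not be assessed. miR-221-3p averaged 6.37 in UNX and 6.24 in SHAM, a difference of 0.14 ± 0.16 (log2, SE, 95% interval -0.26 to 0.53) with an adjusted p of 0.70 by limma. Row 1 gave 0.26 and row 2 gave 0.01, and without the first UNX array the difference was 0.00. The 2 probes differed in sign here, at -0.02 and 0.22.

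miR-222-3p was not above background in UNX or in SHAM, so no fold is given, and its adjusted p of 0.94 (limma) says nothing about a difference. Its probes also differed in sign, at 0.20 and -0.06, as did the slide rows, at 0.54 and -0.47. The share of miRNAs past the threshold was again 0%, or 0 of 242, and 16 had a p under 0.05 before adjustment, 2 of them higher in UNX and 14 lower. The median difference over all miRNAs was -0.12, so miR-221-3p stood 0.25 above it.

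The contrast that selected the pair set DOCA-salt against standard diet. Vesicle treatment was pooled in the DOCA-salt groups, and nephrectomy and sham operation in the standard-diet groups. Every DOCA-salt rat was nephrectomized, so nephrectomy was not balanced between the sides. Over the 4 DOCA-salt arrays miR-221-3p averaged 7.24 ± 0.23, against 6.30 ± 0.14 over the 4 standard-diet arrays (SD, n = 4 each), a difference of 0.94 (log2) or 1.92-fold. The slide rows gave 0.96 and 0.92. miR-222-3p averaged 4.89 ± 0.23 over the DOCA-salt arrays and 3.67 ± 0.29 over the standard-diet arrays (SD, n = 4 each), and was above background on 2 of the 4 DOCA-salt arrays and on 0 of the 4 others. With each standard-diet value raised to the dimmest measurable level of its array, the difference was 0.65 (log2), which is no strict lower bound because the DOCA arrays were themselves not above background. All 4 DOCA-salt arrays lay above all 4 standard-diet arrays for each of the 4 probes of both 3p arms. The same separation in the higher direction was found for 10.3% of the 242 miRNAs, and 4.55% were called higher (6.61% in either direction) in this contrast by limma; nothing is read from these shares for members that the contrast had selected.

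By separate groups, miR-221-3p was 1.63-fold higher in DOCA than in UNX (0.70 on the log2 scale) and 1.79-fold higher in DOCA than in SHAM (0.84). DOCA-EVs stood 2.06-fold above UNX (1.04) and 2.26-fold above SHAM (1.18). These contrasts share arrays. For miR-222-3p, DOCA-EVs stood 1.88-fold above UNX and 1.71-fold above SHAM. Each UNX and SHAM value was first raised to the dimmest measurable level of its array. These folds are no strict lower bounds, because a miRNA can exceed that level without being above background, as on the first DOCA array. DOCA against UNX or SHAM has no fold because no array of those groups was above background. The miR-221-3p difference between DOCA and UNX rested on the scaling between arrays, being 0.12 on unscaled signals, where the median of all miRNAs was -0.50.

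Ordered by the DOCA-salt minus standard-diet difference, miR-222-3p was in place 5 (fitted, 1.23) and miR-221-3p in place 8 (0.94) of 242. Just above miR-222-3p were miR-132-3p at 1.63 and miR-503-5p at 1.24, and between the members came miR-155-5p at 1.21 and miR-34b-5p at 0.99. Just below miR-221-3p were miR-3473 at 0.90 and miR-150-3p at 0.83. Of these 8 miRNAs, miR-221-3p and miR-3473 were above background on 8 of 8 arrays and the others on 2 to 5.

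Over the 8 arrays the Pearson correlation of the members' normalized levels was 0.96, a description of 8 points that share groups, slide and scaling. Both had been selected for being higher on the same 4 arrays, which by itself makes this value high. The log2 ratio of miR-221-3p to miR-222-3p within an array, which dividing an array by 1 factor moves only at the signal floor, was 2.49 and 2.18 in DOCA-EVs, 2.29 and 2.45 in DOCA, 2.57 and 2.81 in UNX, and 2.85 and 2.33 in SHAM. The groups overlapped in this ratio. Because the probes differ, the ratio shows relative change and not relative abundance. With miR-222-3p not above background on 6 arrays, the ratio carries no order of the groups.

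Among the 240 other miRNAs in the fit, those most like the mean of both members over the 8 arrays were miR-92a-3p (r = 0.91), miR-34a-5p (0.91), miR-155-5p (0.88), miR-125a-5p (0.82) and miR-132-3p (0.82). Only the first 2 exceeded 0.9, and the median r was 0.02. miR-92a-3p, a member of the miR-17-92 cluster, had normalized levels of 8.59 and 8.54 in DOCA-EVs, 8.33 and 8.51 in DOCA, 8.14 and 8.12 in UNX, and 8.17 and 8.27 in SHAM. Its DOCA-salt and standard-diet arrays did not overlap, and its difference of 0.32 was smaller than that of miR-221-3p. miR-34a-5p, a target of the tumour suppressor p53, had 7.50 and 7.49 in DOCA-EVs, 7.53 and 7.65 in DOCA, 6.91 and 6.98 in UNX, and 6.85 and 6.89 in SHAM. Between DOCA-EVs and DOCA it had a difference of -0.09 (limma adjusted p = 0.96).

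**Figure D4:**
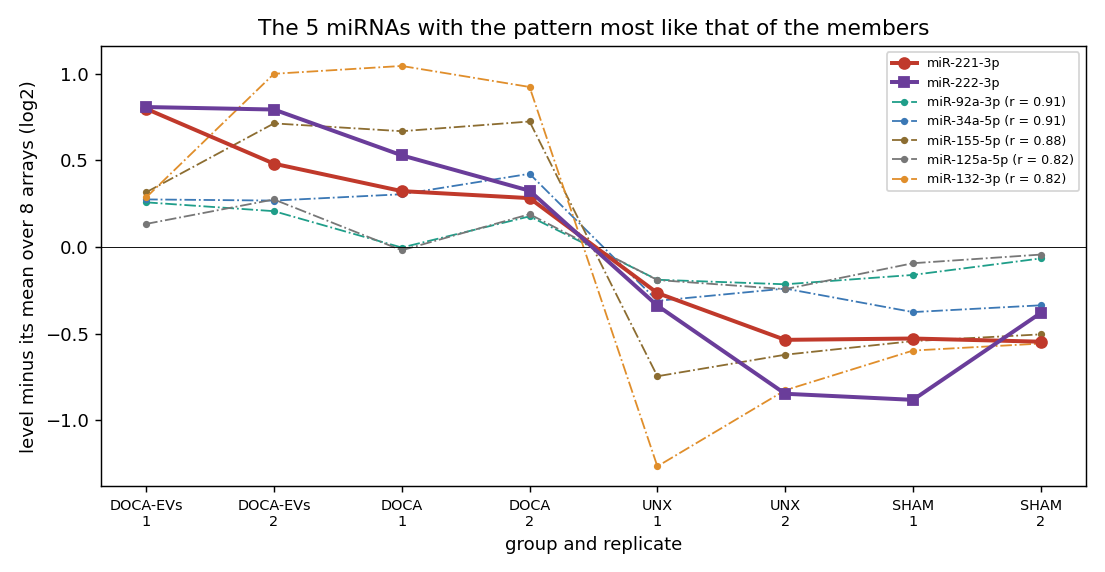
Normalized level minus the mean of that miRNA over the 8 arrays (log2, vertical axis) by group and replicate (horizontal axis), for both members and the 5 miRNAs most like their mean (Pearson r over 8 arrays in the legend); the lines join arrays only to guide the eye. All 7 miRNAs stand below their own mean on the 4 standard-diet arrays, and both members and miR-92a-3p have their highest 2 arrays in DOCA-EVs.

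Lists of miRNAs known from vessel wall, blood and tubule cells were set beside the members, since miR-221 and miR-222 are made in several of these cells. Of the list tied to smooth muscle growth, 5 of 5 were in the fit, and 0 passed the test in DOCA-EVs against DOCA, where 4 were positive and 1 negative (median 0.04). Within it, miR-21-5p, which rises in injured arteries and fibrotic kidney, had a DOCA-EVs minus DOCA difference of -0.83 ± 0.34 (log2, SE, limma adjusted p = 0.47). miR-31a-5p, described in rat smooth muscle proliferation, had 1.25 ± 0.22 (limma adjusted p = 0.069). That was the largest difference of all 242 miRNAs in this contrast, with 5 arrays above background. The list was chosen with earlier results of these data known. Neither miR-21-5p nor miR-31a-5p passed the threshold, and their signs were opposite.

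The list of contractile smooth muscle miRNAs had 3 of 7 members in the fit. All 3 were negative in DOCA-EVs against DOCA (median -0.22) and in UNX against SHAM (median -0.28), with 0 past the threshold in either. Of all 242 miRNAs, 119 and 154 were negative in these contrasts. One of the 3, miR-133b-3p, was above background on 0 arrays, and the UNX against SHAM median is its value. miR-143-3p, with miR-145 the classic pair of differentiated smooth muscle, had a DOCA-EVs minus DOCA difference of -0.22 ± 0.15. The summed level of this list (log2) reached at most 9.85 in DOCA-EVs, 9.89 in DOCA, 10.04 in UNX and 10.13 in SHAM. Its part in the members' levels was not tested.

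Endothelial miRNAs had 6 of 7 in the fit, with 5 positive and 1 negative in DOCA-EVs against DOCA (median 0.12) and 0 past the threshold. miR-126a-3p, the best known miRNA of endothelium, had a difference of 0.10 ± 0.16 there. The summed level of the list was 12.93 to 13.13 in DOCA-EVs, 12.86 to 12.95 in DOCA, 12.96 to 12.98 in UNX and 12.94 to 12.96 in SHAM. The DOCA-EVs range covered those of UNX and SHAM.

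Some leukocyte miRNAs were called in the selecting contrast. Of 7, 6 were in the fit, all 6 were positive in DOCA against UNX (median 0.92) and in DOCA-salt against standard diet (median 0.70), and 1 and 2 of them were called higher. Over all miRNAs the medians were 0.08 and -0.01, and 1.24% and 4.55% were called higher. The called ones were miR-155-5p, made by activated immune cells, in both contrasts and miR-146b-5p, an inflammation-linked miRNA named after its values were seen, in the pooled contrast. They were above background on 5 and 4 arrays. The other leukocyte miRNAs in the fit were above background on 8 arrays and were called in neither contrast. The summed level of the list was 8.87 to 9.26 in DOCA-EVs, 9.35 to 9.55 in DOCA, 8.65 to 8.67 in UNX and 8.76 to 8.77 in SHAM. In DOCA-EVs against DOCA all 6 were negative (median -0.33), with 0 past the threshold; their difference from the members was not tested. miR-142-3p, specific to blood cells, had -0.77 ± 0.27 (log2, SE, limma adjusted p = 0.42) there, and miR-142-5p was detected on 0 arrays. The part of leukocytes in the members' levels was not tested.

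Among kidney tubule miRNAs, some were called lower in the selecting contrast. Of 8, 7 were in the fit, all 7 were negative in DOCA-salt against standard diet (median -0.20) and 2 were called lower, as were 2.07% of all 242: miR-192-5p by -0.61 ± 0.10 and miR-194-5p by -0.59 ± 0.12 (log2, SE, limma adjusted p = 0.024 and 0.042). Their summed level was 12.89 to 13.12 in DOCA-EVs, 12.79 to 12.82 in DOCA, 13.18 to 13.27 in UNX and 13.05 to 13.08 in SHAM. In DOCA-EVs against DOCA 4 were positive and 3 negative (median 0.18). Their part in the members' levels was not tested. The 7 tubule miRNAs were above background on 8 of 8 arrays, and of the 6 miRNAs listed for other organs miR-122-5p of liver, miR-124-3p of nerve and miR-208a-3p of heart were detected on 0 arrays. The other 3 of that list were detected: miR-206-3p of skeletal muscle on 8 arrays, miR-375-3p of endocrine cells on 4 and miR-9a-5p of nerve on 2. One of them, miR-375-3p, was called lower in DOCA-salt against standard diet (-1.11 ± 0.14, limma adjusted p = 0.0094), with 1 array above background; miR-208a-3p and miR-375-3p were named after their values were seen.

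Erythrocyte miRNAs, a measure of blood left in the tissue, had 2 of 4 in the fit. Their summed level was 7.19 to 7.20 in DOCA-EVs, 6.81 to 8.67 in DOCA, 7.86 to 8.33 in UNX and 8.13 to 8.19 in SHAM. The widest range was between the DOCA arrays. Of the 2 in the fit, miR-486 was above background on 0 arrays. The part of blood in the members' levels was not tested.

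The other X-linked miRNAs were set beside the members because they share a chromosome. The 20 in the fit, of which miR-223-3p is also in the leukocyte list, had 12 positive and 8 negative differences in DOCA-salt against standard diet. Their median was 0.05, and they ran between -0.47 and 1.24. The highest was miR-503-5p, above background on 3 arrays and over the 0.94 of miR-221-3p. The members had been selected by this contrast and the list had not, so the median is no measure for them. One of the 20, miR-188-5p, named after its values were seen, was called higher (0.55 ± 0.10, limma adjusted p = 0.041), a share near the 4.55% of all miRNAs. In DOCA-EVs against DOCA 7 were positive and 13 negative, with a median of -0.10 and 0 past the threshold.

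The arrays were alike in design but not in brightness. All lay on 1 slide, each with 12128 miRNA spots and 0 saturated, and the number of detected miRNAs ran between 208 and 264. The spike-in hybridisation control read 3193 on the second DOCA-EVs array and 3059 on the second DOCA array, against 6442 to 6914 intensity units on the other 6. Without both of these arrays, DOCA-EVs minus DOCA for miR-221-3p was 0.47 (log2, limma adjusted p = 0.21) and DOCA-salt minus standard diet was 1.03. For miR-222-3p, DOCA-EVs minus DOCA was then 0.28 (log2), with the DOCA array not above background. Each group occupied a column of the slide, so slide column and group cannot be told apart. The median absolute difference between the 2 arrays of a group, over 242 miRNAs, was 0.37 in DOCA-EVs, 0.25 in DOCA, 0.18 in UNX and 0.06 in SHAM (log2).

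The size of the miR-221-3p differences depended on the processing more than their direction did. Over 9 ways of processing the signals, DOCA-salt minus standard diet ran between 0.40 and 0.98, DOCA-EVs minus DOCA between 0.22 and 0.78, and UNX minus SHAM between 0.02 and 0.46. Relative to the median of all miRNAs under the same setting, the ranges were 0.42 to 0.96, 0.21 to 0.35 and 0.10 to 0.27 in that order. All were above 0.

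**Figure D5:**
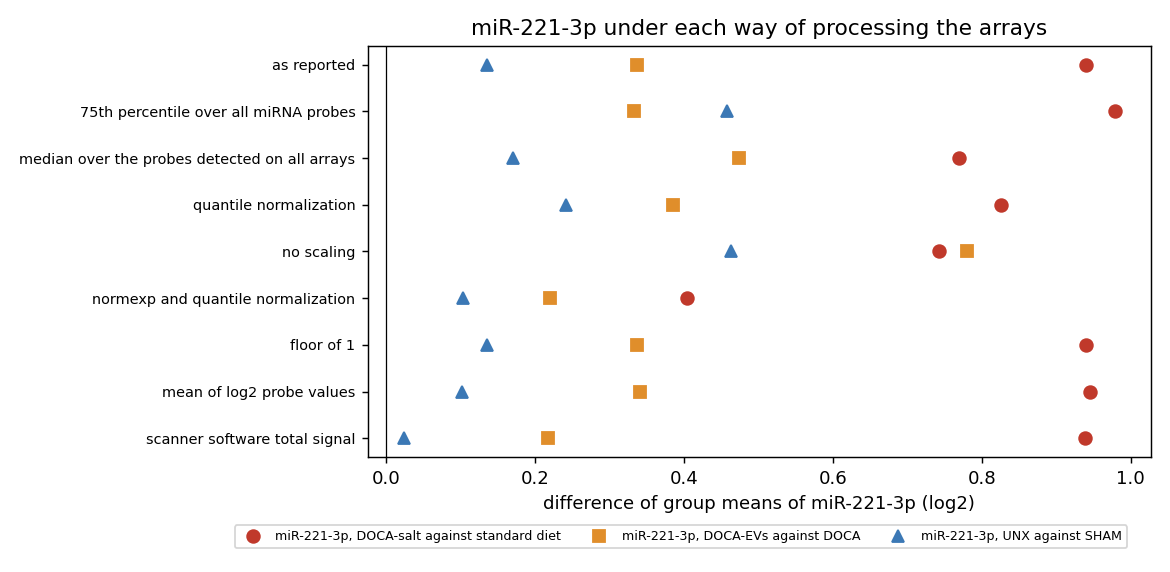
Difference of group means of miR-221-3p (log2, horizontal axis) under each of 9 ways of processing the arrays (vertical axis), for DOCA-salt against standard diet (circles), DOCA-EVs against DOCA (squares) and UNX against SHAM (triangles). As reported the values are 0.94, 0.34 and 0.14; all points lie right of 0, and the normexp setting gives the smallest DOCA-salt value, 0.40.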

How the data were processed

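Total RNA (100 ng, RNA integrity number above 8.0, per the labels) was labelled with Cy3. The deposited files hold intensity values per spot from Agilent Feature Extraction 11.5.1.1, background-subtracted but not scaled between arrays, per the file headers; the headers name the rn4 build, so coordinates come only from the RefSeq table. The deposited series table held the same intensities (largest difference 0). Processed signals were averaged over unflagged spots per probe, divided by each array's 75th percentile over the 271 probes above background on every array, floored at 2.57 (mean SD of the negative controls), summed over the probes of a miRNA and taken to log2.

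A miRNA entered the fit if both arrays of some group had it detected by the software, which left 242 of 758 (31.9%). limma 3.58.1 under R 4.3.3 estimated a mean for each group (residual degrees of freedom: 4), and two-sided p-values were adjusted by Benjamini-Hochberg over the 242, with a threshold of 0.05. miR-222-3p passed this filter through the DOCA-salt groups. The script was tested on simulated data. Replicate numbers are slide rows and paired the arrays: deviations from group means correlated at 0.24 to 0.56 in all 6 pairs of groups. Alternatives were other scalings, normexp (offset 50, on median spot signals), floors, filters, array weights, a replicate block and leaving out each array. Members and lists were chosen with earlier results of these data known. Named miRNAs were the members, the 5 most correlated with them, their neighbours in the pooled order and up to 4 of each list in a fixed order. Of the 242, 218 matched the RefSeq table by name. The number of arrays limits the precision.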

Additional observations from a re-analysis of the deposited data

How the results depend on the processing

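The tests of miR-221-3p in both tested contrasts and of miR-222-3p in DOCA-EVs against DOCA kept their direction and stayed past no threshold under 65 of 65 alternatives. miR-222-3p in UNX against SHAM was not above background, so its test bears on nothing. Its fitted sign turned without the first SHAM array and without the first UNX array. Over all alternatives the adjusted p (limma) of miR-221-3p ran between 0.16 and 1 in DOCA-EVs against DOCA and between 0.37 and 1 in UNX against SHAM, and that of miR-222-3p between 0.30 and 1 and between 0.72 and 1. With the replicate block, the adjusted p (limma) was 0.40 and 0.61 for miR-221-3p and 0.65 and 0.94 for miR-222-3p, both counts of calls stayed at 0, and no call changed. Among the 65 alternatives, filters, array weights, the replicate block and leaving out arrays of other groups left the estimated difference as it was. Those alternatives bear on the p-value alone and say nothing about direction.

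Scaling shifted the median of all miRNAs, most without scaling (0.44 in DOCA-EVs against DOCA, 0.19 in UNX against SHAM). miR-221-3p in DOCA against UNX (0.70) was 0.45 with the median of detected probes, 0.51 with quantile normalization, 0.12 without scaling and 0.24 with normexp and quantile normalization. In DOCA-salt against standard diet (0.94) it was 0.77, 0.74 and 0.40 with the median, without scaling and with normexp. The difference of miR-222-3p there from the raised standard-diet values (0.65) was 0.13 with normexp, 1.21 as the mean of log2 probe values and 1.45 with the software's total signal. The DOCA-salt minus standard-diet difference of the log2 miR-221-3p to miR-222-3p ratio (-0.29) was 0.26 with normexp, the opposite direction. With the total signal it was -1.18. The cause was not tested.

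Calls in DOCA-EVs against DOCA (0) numbered 4 with the median, 3 with quantile normalization, 1 with a floor of 1 and 2 without the filter, all higher. They numbered 5 without both arrays with dim hybridisation controls, an alternative chosen after seeing the data, of which 1 was higher. In UNX against SHAM (0), array weights gave 3, all lower.

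Leaving out each array in turn, the ranges were 0.18 to 0.50 (DOCA-EVs against DOCA), 0.00 to 0.27 (UNX against SHAM), 0.57 to 0.84 (DOCA against UNX) and 0.86 to 1.02 (DOCA-salt against standard diet) for miR-221-3p. For miR-222-3p the differences from the dimmer group, raised to the dimmest measurable level where below it, were 0.27 to 0.34 in DOCA-EVs against DOCA and 0.56 to 0.75 in the pooled contrast, and the adjusted p in UNX against SHAM was 0.78 to 0.99 (limma). The difference of the log2 ratio between DOCA-salt and standard diet ran between -0.39 and -0.22. Calls ran between 0 and 3 (3 without the second DOCA-EVs array) and between 0 and 0. Where this left a group with 1 array, it was assumed to vary like the others. miR-222-3p in DOCA against UNX had no value, and the filter for detection on 8 arrays left it out. Signal over background limits miR-222-3p on 6 arrays.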
